A study of Mus musculus with 18 samples.

Results

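The 34 genes described here mark macrophages and monocytes, and they were taken by name from the 49585 gene identifiers of the count table. Of these, 6 mark alveolar macrophages (Chil3, Marco, Siglecf, Ear2, Pparg and Plet1), and the other 28 mark interstitial, tumour or circulating cells of the lineage. RNA came from 18 lung metastases of AT3, a breast cancer cell line of MMTV-PyMT mice, which had spread from fat pad tumours carrying GFP and mCherry. Every host was labelled Rag2-/-IL2rg-/-, a strain without T, B and NK cells of its own that keeps macrophages and monocytes; the growth protocol names Rag1-/-IL2rg-/- instead. The NK group (label: NK transferred) had 7 lesions from 2 mice given 60000 activated murine NK cells by vein on day 11, NK1 (3 lesions) and NK2 (4). The Ctrl group had 11 lesions from 3 mice given PBS, KO1 (5 lesions), KO2 (4) and KO3 (2). The age of the mice was not stated in the labels. A lesion is written as mouse and lesion number (NK1-1), and the mouse is the replicate, so each comparison of the groups is 2 mice against 3.

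Macrophages of the lung are of several kinds. Alveolar macrophages live in the air spaces, clear surfactant lipid and depend on the cytokine GM-CSF and the nuclear receptor PPAR gamma, which Pparg encodes. Interstitial macrophages live in the tissue and depend on the receptor that Csf1r encodes, and monocytes that arrive from blood, marked by Ly6c2, can become macrophages in a tumour. Tumour macrophages often carry complement C1q and genes of lipid handling such as Apoe, Trem2 and Gpnmb.

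Library facts bear on all values. Total counts ran from 2964242 to 11798897 in the NK lesions and from 5690467 to 9816244 in the Ctrl lesions, and mt-Rnr2, a ribosomal RNA of mitochondria, accounted for 12.1% to 68.7% of them. It was over 40% in 6 lesions, namely all 3 of NK1, KO1-2, KO1-5 and KO3-2. Lesion NK1-1 held fat cell genes (8 genes, 1676 CPM in sum, where the other 17 lesions held 0.115 to 6.73), and lesion NK1-3 was the shallowest and had the highest sum of lung epithelial genes (26890 CPM over 12 genes). The 8 genes of epithelium and tumour summed to 87.3 to 852 CPM. Levels are CPM, counts relative to the scaled library size, and the value of a mouse comes from the summed counts of its lesions. The labels name no batch.

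**Figure D1:**
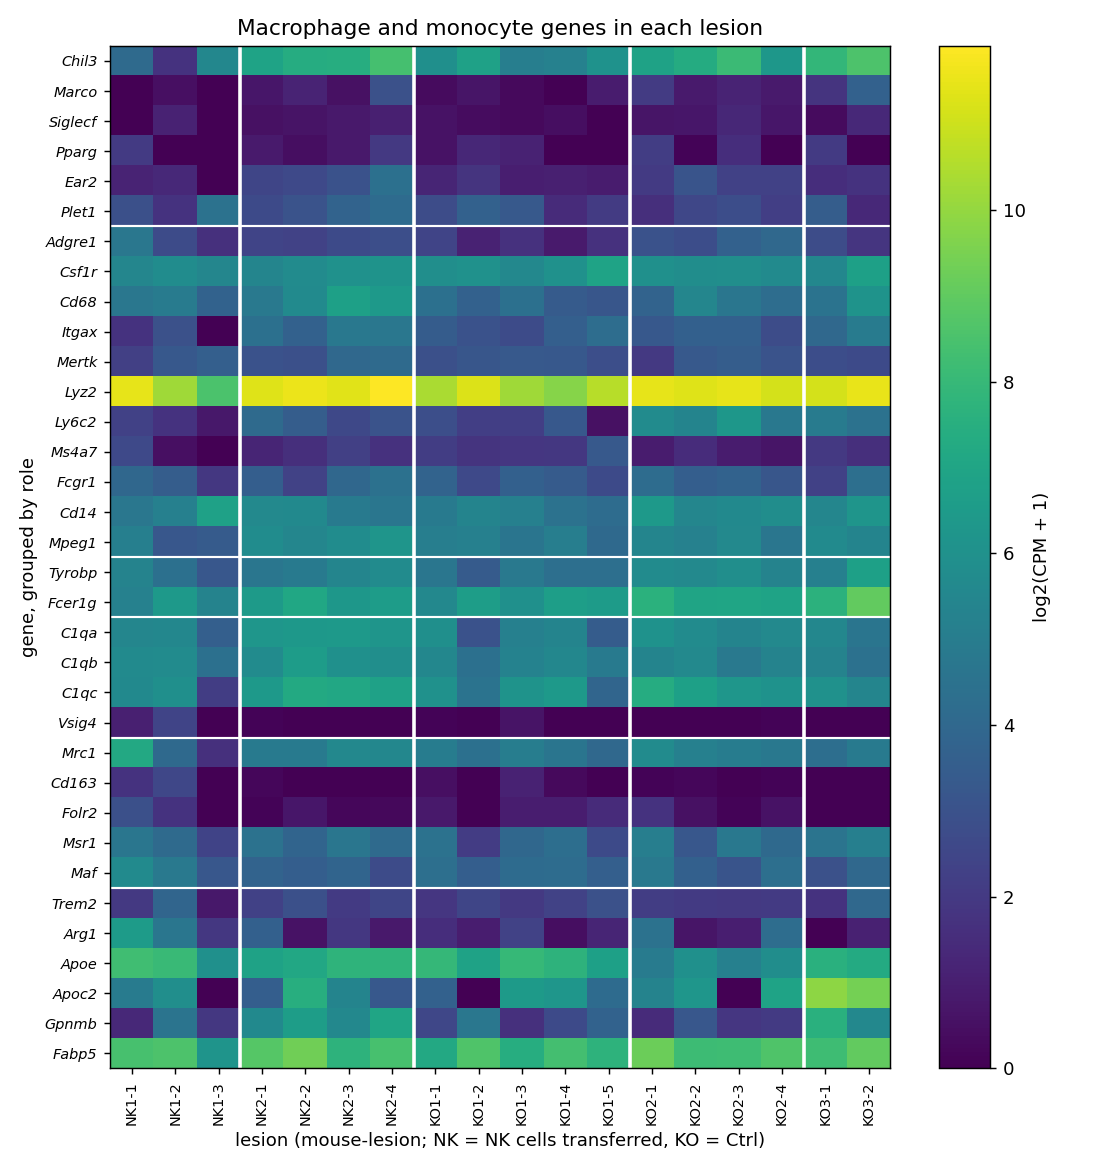
Level of the 34 genes (rows, grouped by role and separated by white lines) in the 18 lesions (columns, grouped by mouse), as log2(CPM + 1). Lyz2 was the highest row in every lesion, and Cd163, Vsig4 and Folr2 stayed at or under 2.32 CPM outside mouse NK1.

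All 34 genes had counts, 33 of them passed the filter on low counts, and Vsig4 did not. Compared per kilobase of transcript, the order of the mean levels over the 5 mice began with Lyz2, the lysozyme of myeloid cells (1807 CPM per kb), the lipoprotein gene Apoc2 (266.5), the receptor adaptor Fcer1g (160.5), the fatty acid carrier Fabp5 (99.4), Chil3 (91.6) and Apoe (83.4). It ended with Vsig4 (0.266), Siglecf (0.219) and the haemoglobin receptor Cd163 (0.120). Lyz2 alone made up 42.7% to 73.0% of the summed CPM of the 28 non-alveolar genes in a lesion. Its counts were fractional in 17 of the 18 lesions, a sign of reads shared with another gene, so its level is uncertain.

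Promoter sequences are printed for 4 of the genes that differed among the Ctrl mice, described further on, and for the complement gene C1qb. RefSeq's table (GRCm38.p6) held a promoter for 25 of the 34 genes and none for Adgre1, Csf1r, C1qa, Cd14, Arg1, Fabp5, Msr1, Maf and Tyrobp. Each run is the 250 bases before the first listed RefSeq start, on the gene's strand, and no annotated exon lies in these windows. Capitals mark AGGAAGT on either strand, the core bound by the myeloid factor PU.1 and other ETS proteins. The windows are Apoe, chr7:19699189-19699438 (minus strand), C1qb, chr4:136886201-136886450 (minus), Chil3, chr3:106167565-106167814 (minus), Gpnmb, chr6:49036268-49036517 (plus) and Ly6c2, chr15:75111972-75112221 (minus).
Apoe: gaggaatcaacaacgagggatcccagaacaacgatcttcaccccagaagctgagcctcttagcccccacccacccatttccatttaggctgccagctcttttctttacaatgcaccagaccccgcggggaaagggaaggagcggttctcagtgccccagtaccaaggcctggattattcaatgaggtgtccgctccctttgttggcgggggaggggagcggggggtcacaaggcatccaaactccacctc
C1qb: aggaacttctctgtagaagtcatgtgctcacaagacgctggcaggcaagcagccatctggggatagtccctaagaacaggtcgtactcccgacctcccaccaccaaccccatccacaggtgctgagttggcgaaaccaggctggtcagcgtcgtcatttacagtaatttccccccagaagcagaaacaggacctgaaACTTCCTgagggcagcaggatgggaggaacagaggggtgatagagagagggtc
Chil3: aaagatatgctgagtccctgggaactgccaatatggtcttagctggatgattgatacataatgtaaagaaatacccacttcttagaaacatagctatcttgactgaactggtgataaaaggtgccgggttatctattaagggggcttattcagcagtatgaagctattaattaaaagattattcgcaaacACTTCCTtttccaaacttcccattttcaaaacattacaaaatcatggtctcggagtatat
Gpnmb: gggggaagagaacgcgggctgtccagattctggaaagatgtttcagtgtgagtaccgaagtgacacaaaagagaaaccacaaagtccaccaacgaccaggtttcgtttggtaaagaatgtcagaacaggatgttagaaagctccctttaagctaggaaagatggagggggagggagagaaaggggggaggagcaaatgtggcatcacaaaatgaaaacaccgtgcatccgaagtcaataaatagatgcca
Ly6c2: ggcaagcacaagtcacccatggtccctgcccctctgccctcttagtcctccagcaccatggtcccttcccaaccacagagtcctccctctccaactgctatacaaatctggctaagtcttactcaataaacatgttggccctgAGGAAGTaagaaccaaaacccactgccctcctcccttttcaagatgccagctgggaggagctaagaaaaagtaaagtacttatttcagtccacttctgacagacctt
The letters AGGAAGT began 107 bases before the RefSeq start of Ly6c2, and their reverse complement began 60 bases before that of Chil3 and 53 before that of C1qb. They were in 8 of the 25 windows, against 7.80% of all 27025 gene promoters in the table. TCANGTGA, the letters of the MITF and TFE family, was in 0 of the 25 windows and in 3.49% of all promoters. TTGCNNAA, of the C/EBP family, was in 3 windows (Plet1, Cd68 and Ear2) and in 9.55% of all promoters. A match describes the letters and is not a measured binding site.

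The alveolar macrophage genes had counts in both groups, and their levels overlapped between them. Their summed level was 27.4 CPM in NK1 and 240 in NK2, against 61.5 (KO1), 178 (KO2) and 319 (KO3), so the NK mice lay on both sides of 2 of the Ctrl mice. NK1 was the lowest of the 5 mice for 4 of the 6 genes. In bulk tissue, fewer cells of a type and less RNA per cell cannot be told apart. Chil3, a secreted chitinase-like protein of alveolar macrophages that neutrophils and monocytes also transcribe, was a median of 89.9% of that sum over the lesions (30.0% to 95.7%).

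Chil3 had 16.6 CPM in NK1 and 214 in NK2, against 52.3 (KO1), 164 (KO2) and 300.4 (KO3) in the Ctrl mice. Over lesions it ran from 2.40 to 340 (median 118) in the NK group and from 33.6 to 387 (median 113) in Ctrl, so the groups overlapped widely. Its log2 fold change, NK minus Ctrl, was -0.58 ± 1.06 (SE; edgeR adjusted p = 0.9998). It turned to 0.32 without mouse NK1 and to 0.09 without KO3.

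Marco, a scavenger receptor for inhaled particles, was low, with 0.0952 CPM in NK1 and 2.64 in NK2, against 0.278 (KO1), 1.60 (KO2) and 6.09 (KO3) in the Ctrl mice. Of its 149 NK counts, 115 were in lesion NK2-4, and the Ctrl lesions held 153. Its log2 fold change was -0.89 ± 1.495 (SE), and it was 0.02 without NK1 and 0.58 without KO3. Ear2, an eosinophil-type ribonuclease also made by alveolar macrophages, had 1.14 CPM in NK1 and 10.2 in NK2, against 1.28 (KO1), 4.98 (KO2) and 2.18 (KO3) in the Ctrl mice. NK2 was the highest mouse and NK1 the lowest, which gave a log2 fold change of 1.02 ± 0.997 (SE), or -1.30 without NK2. RSEM's fractional counts show that Ear2 shared reads in 10 of the 18 lesions, so its level is uncertain.

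Plet1, a surface protein of alveolar macrophages that some epithelia also make, had 7.42 CPM in NK1 and 11.3 in NK2, against 6.57 (KO1), 4.37 (KO2) and 7.48 (KO3) in the Ctrl mice, and gave 0.62 ± 0.55 (SE, log2). Its highest lesion was NK1-3 (21.7 CPM), the lesion highest in lung epithelial and in epithelial and tumour genes; the part of those cells in its level was not tested. Plet1 overlaps Plet1os on the other strand, and without known strand handling their reads cannot be told apart. Siglecf, a sialic acid receptor, stayed at or under 1.62 CPM in every lesion (45 counts in NK, 62 in Ctrl), and Pparg, which overlaps Gm44079 on the other strand, at or under 3.44 CPM. Neither depth allows a statement on single lesions.

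**Figure D2:**
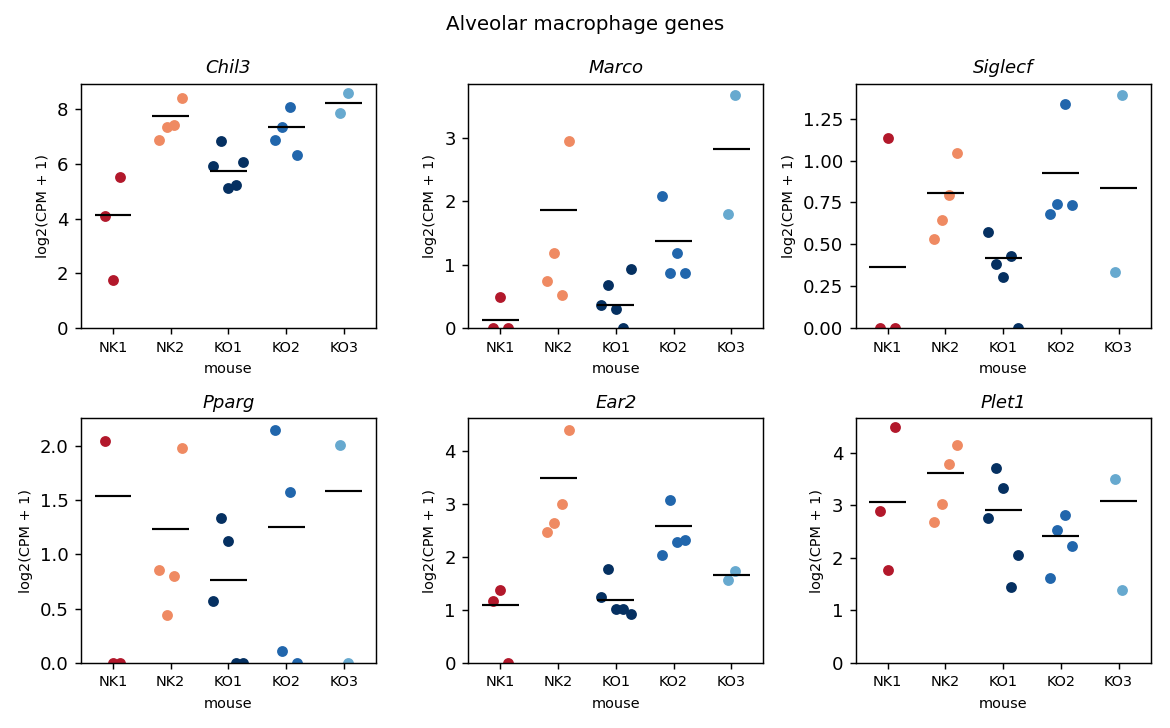
Level of the 6 alveolar macrophage genes as log2(CPM + 1) in each lesion (points) and from the summed counts of each mouse (bars). The 3 lesions of NK1 lay between 2.40 and 44.8 CPM of Chil3 and those of NK2 between 118 and 340, while the Ctrl lesions ran from 33.6 to 387.

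The 12 further alveolar macrophage genes had a median log2 fold change of 0.52, with 8 positive and 4 negative values. The 2 of smallest p were Fabp4 (5.45 ± 1.46 SE, log2) and Cidec (6.74 ± 1.81 SE), which carry and store lipid and are also fat cell genes. Fabp4 had 109.8 CPM in NK1 (179.7 in NK1-1 and under 1 in its other lesions) and 0.362 to 2.53 in the other 4 mice, and the fat cell list, which holds both genes, summed to 1022 CPM in NK1 and to 0.724 to 5.39 in the others. Neither gene passed (edgeR adjusted p = 0.9998 for each), although DESeq2 called Fabp4 (adjusted p = 0.00998). The part of fat cells was not tested.

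Among the pan-macrophage genes, the groups overlapped. Csf1r, the receptor for the growth factor M-CSF, had the smallest standard error of the named genes, with 45.3 CPM in NK1 and 60.2 in NK2, against 61.7 (KO1), 60.1 (KO2) and 70.7 (KO3) in the Ctrl mice (log2 fold change -0.28 ± 0.35 SE). NK1 was the lowest mouse and NK2 lay among the Ctrl mice. It had fractional counts in all 18 lesions, a sign of shared reads, and overlaps Hmgxb3 on the other strand, so its level is uncertain.

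Adgre1, which encodes the macrophage surface protein F4/80, had 16.9 CPM in NK1 and 5.32 in NK2, against 2.48 (KO1), 10.5 (KO2) and 4.79 (KO3) in the Ctrl mice. Lesion NK1-1 had 25.1 CPM, and the log2 fold change of 0.90 ± 0.77 (SE) was -0.26 without that lesion. Cd68, a lysosomal protein of phagocytes, had 24.6 CPM in NK1 and 70.5 in NK2, against 16.7 (KO1), 26.8 (KO2) and 40.1 (KO3) in the Ctrl mice. NK2 was the highest mouse, with 107.5 CPM in lesion NK2-3, and the log2 fold change was 0.78 ± 0.56 (SE), or -0.18 without NK2. Lyz2 had 2033 CPM in NK1 and 3174 in NK2, against 1338 (KO1), 2752 (KO2) and 2590 (KO3) in the Ctrl mice, a log2 fold change of 0.23 ± 0.48 (SE).

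The rest of the surface and lineage genes lay within the same spread. Itgax (the integrin CD11c), Mertk (a receptor for dying cells), Ms4a7, Fcgr1 (an IgG receptor), Cd14 (a lipopolysaccharide co-receptor) and Mpeg1 (a pore-forming protein of phagosomes) had log2 fold changes from -0.36 to 0.27. Cd14 was highest in NK1-3 (109.9 CPM, 157 counts), while the other NK lesions had 24.2 to 49.4. That lesion was the shallowest and the highest in lung epithelial genes, and the part of epithelial cells in its Cd14 was not tested. The adaptors Tyrobp and Fcer1g, which pass on signals of activating receptors, had values of -0.42 ± 0.49 and -1.28 ± 0.67 (SE, log2).

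Complement C1q is a secreted complex of 3 chains whose genes lie side by side on chromosome 4, C1qb (136880129 to 136886187), C1qc (136889804 to 136893065) and C1qa (136895917 to 136898803). C1qa had 38.9 CPM in NK1 and 81.2 in NK2, against 40.8 (KO1), 54.8 (KO2) and 38.2 (KO3) in the Ctrl mice. C1qb had 46.4 CPM in NK1 and 69.8 in NK2, against 40.8 (KO1), 41.4 (KO2) and 33.3 (KO3) in the Ctrl mice, so both NK mice were above every Ctrl mouse. C1qc had 44.9 CPM in NK1 and 127 in NK2, against 66.7 (KO1), 109.5 (KO2) and 57.6 (KO3) in the Ctrl mice. NK2 was the highest mouse for each chain, whereas NK1 was the lowest for C1qc. The log2 fold changes were 0.43 ± 0.43, 0.59 ± 0.37 and 0.14 ± 0.52 (SE), none past the threshold (edgeR adjusted p = 0.9998 for each). Without NK2 those of C1qa and C1qc were -0.20 and -0.80, and that of C1qb was 0.26.

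Per kilobase, the chains were of like abundance, with a median share of 35.7% for C1qa, 31.5% for C1qb and 31.5% for C1qc. The share of C1qc ran from 5.80% to 45.6% and that of C1qb from 20.0% to 61.6%. The lowest share of C1qc was in NK1-3, which had 50 counts of the 3 genes together, and the highest of C1qb was in KO1-5, which had 118.

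Of the 5 scavenger and resident genes, 4 (Mrc1, Maf, Folr2 and Cd163) had their highest level in mouse NK1, though none of them passed the test. Mrc1, the mannose receptor CD206 of resident and interstitial macrophages, had 91.7 CPM in NK1 and 38.6 in NK2, against 28.5 (KO1), 38.2 (KO2) and 23.5 (KO3) in the Ctrl mice. Both NK mice were above every Ctrl mouse, but NK2 exceeded KO2 by less than the lesions of NK2 differ among themselves (27.9 to 45.4 CPM). In NK1 the level came from NK1-1 (143.8 CPM), since NK1-2 had 15.99 and NK1-3 had 2.10, below the lowest Ctrl lesion (15.3). The log2 fold change was 1.11 ± 0.47 (SE; edgeR p = 0.0447, adjusted p = 0.9998), and it was -0.25 without lesion NK1-1.

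The other genes of this role were chosen for mention after their values were seen. Maf, a transcription factor of resident macrophages, had 51.5 CPM in NK1-1 and 5.67 to 27.6 in the other 17 lesions. Folr2, a folate receptor, had 6.40 CPM in NK1-1 (41 counts), 2.40 in NK1-2 and at most 2.32 elsewhere. Cd163 and Vsig4, a complement receptor, were highest in NK1-2, at 4.80 CPM (12 counts) and 4.40 CPM (11 counts). Their highest Ctrl lesion was KO1-3, with 15 and 7 counts, and neither had a count in KO3. Msr1, a scavenger receptor, lay at 19.3 and 19.4 CPM in the NK mice and at 16.5 to 28.02 in the Ctrl mice.

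Sums of genes of other cells were also high in lesions NK1-1 and NK1-2. The fibroblast list (10 genes) summed to 8237 CPM in NK1-1, 2992 in NK1-2 and 186 to 1466 elsewhere. Col3a1 alone had 6845 CPM in NK1-1 and 1798 in NK1-2. Dcn, Lum and Dpt were also highest in NK1-1. The list was split there, since Col1a1, Col1a2, Pdgfra, Tcf21 and Inmt lay inside the range of the Ctrl lesions. Pdgfrb (1.56 CPM) lay below that range (4.92 to 27.7). The list of mast cells and eosinophils (8 genes, 1 of them at 0 in every lesion) summed to 41.5 CPM in NK1-1, 141 in NK1-2 and 0 to 1.77 elsewhere. The fat cell gene Adipoq had 45.4 CPM in NK1 and 0 in the other 4 mice. The part of these tissues in the level of Mrc1, Maf, Folr2, Cd163 and Vsig4 was not tested.

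**Figure D3:**
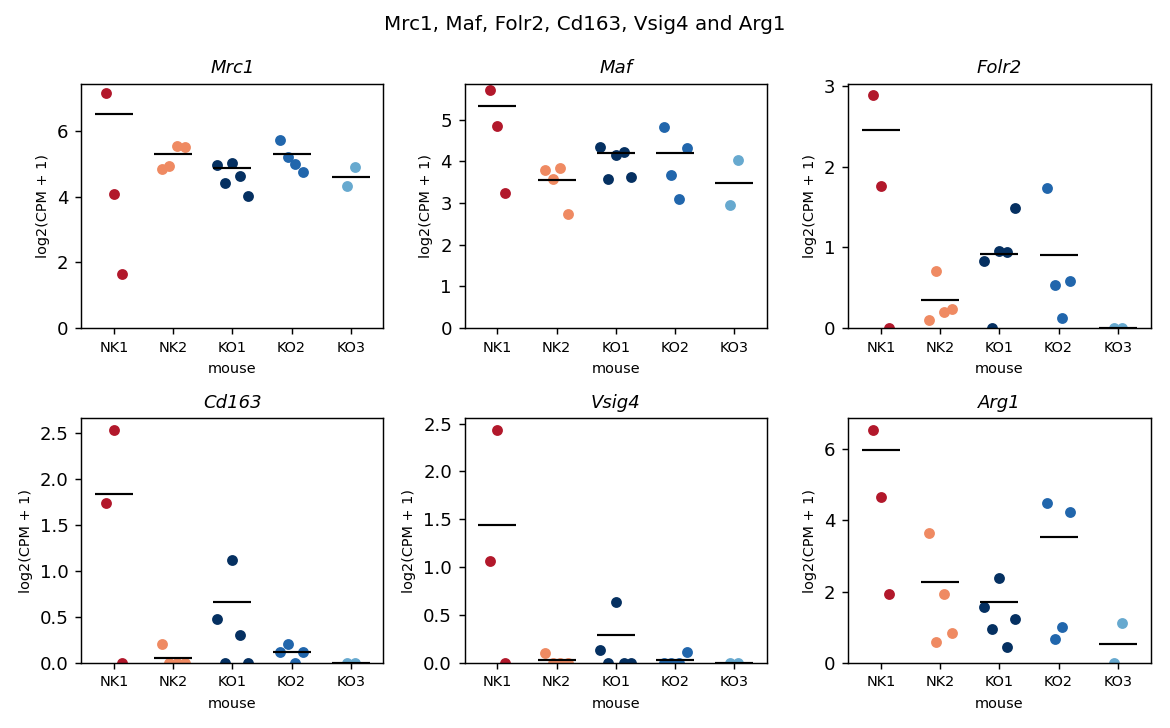
Level of 4 scavenger and resident genes, of the complement receptor Vsig4 and of Arg1 as log2(CPM + 1) in each lesion (points) and from the summed counts of each mouse (bars). The top point of Mrc1, Maf, Folr2 and Arg1 is lesion NK1-1, and that of Cd163 and Vsig4 is NK1-2.

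Arg1, the arginine-degrading enzyme of alternatively activated and tumour macrophages, had 62.4 CPM in NK1 and 3.80 in NK2, against 2.28 (KO1), 10.6 (KO2) and 0.435 (KO3) in the Ctrl mice. NK1 was the highest mouse and NK2 lay inside the Ctrl range, and of the 869 NK counts 591 (68.0%) came from NK1-1. Within KO2 it was uneven too, with 21.5 and 17.9 CPM in KO2-1 and KO2-4 and 0.596 and 0.991 in KO2-2 and KO2-3. The log2 fold change was 2.87 ± 1.37 (SE; edgeR adjusted p = 0.9998), and it was -0.24 without mouse NK1.

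Apoc2, a cofactor of lipoprotein lipase, had 32.1 CPM in NK1 and 59.2 in NK2, against 53.9 (KO1), 64.1 (KO2) and 874 (KO3) in the Ctrl mice. KO3 alone was high, in both of its lesions (935 and 682 CPM), while 3 of the 18 lesions had 0 counts. The log2 fold change of -2.85 ± 1.33 (SE; adjusted p = 0.9998) was -0.37 without KO3. Apoc2 overlaps Gm44805 on the same strand, and that gene also was highest in KO3 (134.7 CPM, against 0 to 8.36), so the 2 cannot be told apart with certainty.

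Apoe, the main lipoprotein of macrophages, had 255 CPM in NK1 and 180 in NK2, against 225 (KO1), 49.3 (KO2) and 181 (KO3) in the Ctrl mice, and gave 0.52 ± 0.60 (SE, log2). KO2 alone was low. Gpnmb, a lysosomal glycoprotein of lipid-loaded macrophages, had 6.85 CPM in NK1 and 86.3 in NK2, against 6.57 (KO1), 4.37 (KO2) and 140.6 (KO3) in the Ctrl mice. High and low mice occurred in both groups, and the log2 fold change was -0.11 ± 1.59 (SE), or 3.10 without KO3. Trem2, a lipid receptor, stayed between 3.29 and 7.22 CPM in the 5 mice (0.06 ± 0.65 SE, log2). Fabp5 lay between 232 and 421 CPM (0.08 ± 0.41 SE), with reads shared in 10 lesions.

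Set side by side, 0 of the 33 tested genes passed in NK against Ctrl (edgeR adjusted p under 0.05), and of all 16917 genes tested 0% passed. At an unadjusted p under 0.05 there was 1 gene, Mrc1, where 2.52% of all genes passed. Both NK mice were above every Ctrl mouse for 2 of the 33 (C1qb and Mrc1; 7.94% of all genes) and below for 0 (6.86% of all genes). DESeq2 called 0 of them and 0.223% of all genes. With low counts left in, edgeR called 3, Arg1 (adjusted p = 3.19e-04), Apoc2 (adjusted p = 2.43e-04) and Ly6c2 (adjusted p = 0.0418), where 0.856% of all genes passed.

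The median log2 fold change was -0.03 for the 6 alveolar genes, with 3 positive and 3 negative values. For the other 27 it was 0.18, with 18 positive and 9 negative. For all genes tested it was -0.03, and 48.3% of their values were positive. Without NK2 the 2 medians were -1.26 and -0.17. A one-sided exact permutation test over 2 and 3 mice cannot give a p below 0.1, so the p-values rest on the spread that the model shares between genes.

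**Figure D4:**
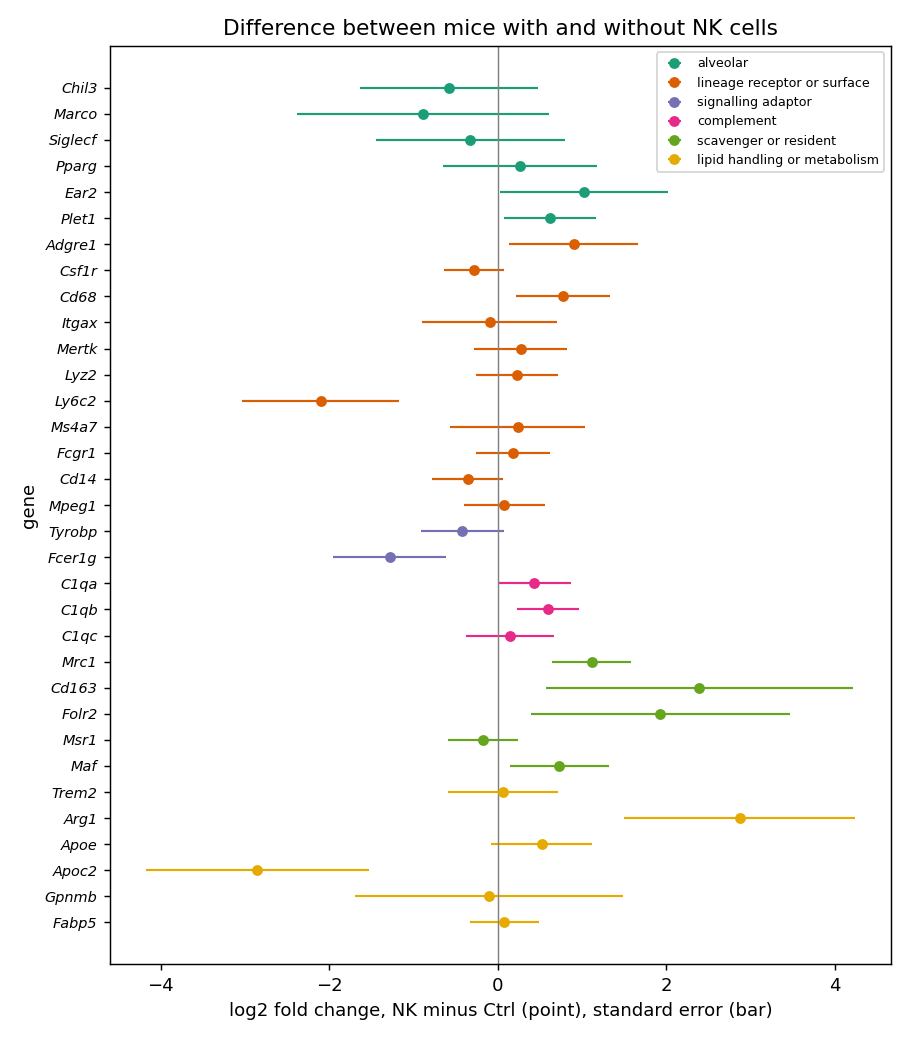
Log2 fold change of the 33 tested genes, NK minus Ctrl (point), with its standard error (bar), coloured by role. The largest values were those of Arg1 (2.87) and Cd163 (2.39) on the positive side and of Apoc2 (-2.85) and Ly6c2 (-2.10) on the negative side, and 0 of the 33 passed the threshold.

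The monocyte gene Ly6c2 was lower in NK1, NK2 and KO1 than in KO2 and KO3. It had 3.05 CPM in NK1 and 9.90 in NK2, against 5.596 (KO1), 51.2 (KO2) and 27.8 (KO3) in the Ctrl mice, and its log2 fold change between the groups was -2.10 ± 0.93 (SE; edgeR adjusted p = 0.9998). With its near copy Ly6c1 added, the larger part of the sum in every mouse, it was -0.37 (edgeR adjusted p = 0.9999). Ly6c2 belongs to the comparison that follows, of the 3 Ctrl mice with each other. There the lesions are the units, and none of the mice had received NK cells.

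Of the 34 genes, 30 could be tested among the Ctrl mice, and 5 differed (edgeR adjusted p under 0.05), 1 of them alveolar, where 2.70% of all 14677 genes tested did. Ly6c2, Fcer1g and Chil3 were lowest in KO1, Apoe was lowest in KO2, and Gpnmb was highest in KO3. DESeq2 called 10 of 32, these 5 and Adgre1, Cd68, Marco, Tyrobp and Ear2, where 14.5% of all genes passed.

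Ly6c2 had 0.449 to 8.73 CPM in the 5 lesions of KO1, 25.9 to 77.7 in the 4 of KO2, and 29.6 and 21.8 in KO3, so KO1 did not overlap the other mice. Its log2 difference was 3.34 for KO2 minus KO1 and 2.45 for KO3 minus KO1 (edgeR adjusted p = 0.0180). Its counts were fractional in all 18 lesions, a sign of shared reads, and its near copy Ly6c1, which endothelium expresses, had 71.2 CPM (KO1), 113.5 (KO2) and 82.9 (KO3; edgeR adjusted p = 0.430). With Ly6c1 added to Ly6c2, a setting chosen after seeing the data, the differences were 1.29 and 0.70 and the call was lost (edgeR adjusted p = 0.205). Ly6c1 was the larger part of that sum in each Ctrl mouse, so the loss cannot show whether reads were wrongly assigned. In the same merged fit, with Gm44805 added to it, Apoc2 passed (log2 differences 0.73 and 4.65, edgeR adjusted p = 0.0398).

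Fcer1g, the shared chain of Fc receptors on macrophages, neutrophils and mast cells, had 45.9 to 101 CPM in KO1, 120 to 191 in KO2, and 202 and 521.5 in KO3. The 3 mice did not overlap, and the log2 differences from KO1 were 0.77 (KO2) and 2.19 (KO3; edgeR adjusted p = 0.0244). Chil3 had 33.6 to 113 CPM in KO1, 78.7 to 273 in KO2, and 235 and 387 in KO3. KO1 and KO2 overlapped, and the log2 differences from KO1 were 1.31 and 2.35 (edgeR adjusted p = 0.0475). Neither gene passed without lesion KO3-2 (edgeR adjusted p = 0.171 for Fcer1g and 0.144 for Chil3). Fcer1g also lost its call without KO1-3, KO2-2 or KO2-3 (edgeR adjusted p = 0.0539 to 0.0583) and without the 6 lesions over 40% mt-Rnr2 (0.0846), and of the 11 lesions only KO1-2 or KO3-1 could be left out with Chil3 still called.

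Apoe had 109 to 251 CPM in KO1, 30.4 to 61.6 in KO2, and 185 and 157 in KO3. Every lesion of KO2 was below every other Ctrl lesion, and the log2 difference was -2.04 for KO2 minus KO1 and -0.09 for KO3 minus KO1 (edgeR adjusted p = 0.0166). Gpnmb had 2.12 to 25.5 CPM in KO1, 1.81 to 8.35 in KO2, and 186 and 46.8 in KO3. Both lesions of KO3 were above the rest, and the log2 differences from KO1 were -1.35 (KO2) and 3.56 (KO3; edgeR adjusted p = 0.0166). Its call was lost without lesion KO3-1 (edgeR adjusted p = 0.0518), and it alone of the 5 was still called without mouse KO1 (edgeR adjusted p = 0.0478; 0.0708 to 0.348 for the other 4). Apoe lost its call without KO2-1 or KO2-3 (edgeR adjusted p = 0.0553 and 0.0569), and Ly6c2 without KO2-3 (0.0539).

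**Figure D5:**
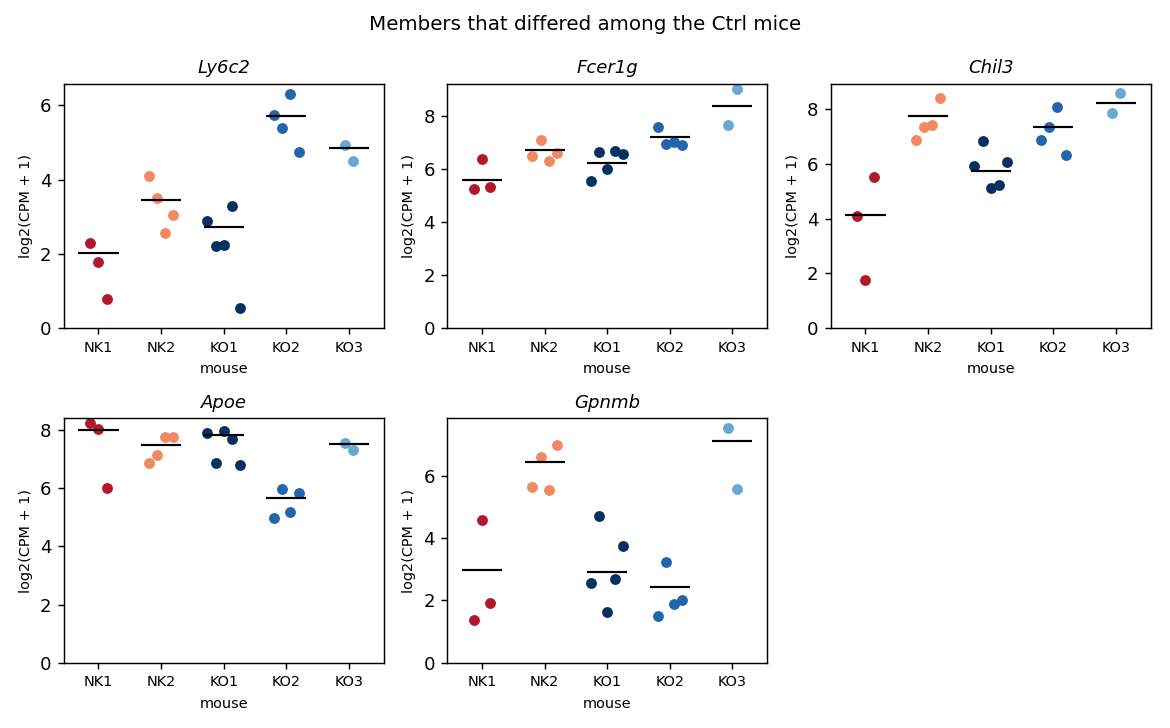
Level of the 5 genes that differed among the Ctrl mice, as log2(CPM + 1) in each lesion (points) and from the summed counts of each mouse (bars), with the NK mice beside them. Apoe was low in the 4 lesions of KO2 (30.4 to 61.6 CPM), and Gpnmb was high in both lesions of KO3 and in the 4 of NK2 (46.2 to 128.5 CPM).

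Among the Ctrl mice, neutrophil genes, like Ly6c2, Fcer1g and Chil3, were lowest in KO1. The 12 genes summed to 391 CPM (KO1), 2164 (KO2) and 3393 (KO3), and to 580 and 355 in NK1 and NK2. The sum of NK1 came mostly from Ltf in lesion NK1-1 (738.8 of 861 CPM). The other lesions of NK1 summed to 132 and 175 CPM, against 251 to 462 in those of NK2, so the order of the NK mice rests on that gene. NK2, with a lower neutrophil sum than KO2, had more Chil3 (214 CPM) than KO2 (164). NK1 had the least Chil3 of the 5 mice. Ly6c2 was higher in KO2 than in KO3. None of the 12 was at 0 in every lesion, and 7 of the 12 differed among the Ctrl mice (S100a8, S100a9, Camp, Retnlg, Mmp8, Mmp9 and Lcn2), where 2.70% of all genes did. S100a9, a calcium-binding protein of neutrophils and monocytes, had 105.5 CPM (KO1), 944 (KO2) and 1550 (KO3). Lesion KO3-2, highest for Fcer1g and Chil3, also had the highest neutrophil sum (6053 CPM). The part of neutrophils in the levels of these 3 genes was not tested.

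Of 11 further monocyte genes, 3 differed among the Ctrl mice in the same fit, where 2.70% of all genes did. Plac8 had 25.4 CPM (KO1), 234.8 (KO2) and 146.7 (KO3) (edgeR adjusted p = 0.0202). Ifitm6 had 1.84, 17.4 and 27.8 CPM (adjusted p = 0.00526), so that KO1 was the lowest Ctrl mouse for both. Ccr2, the receptor that draws monocytes from the marrow, had 42.5 CPM (KO1), 134 (KO2) and 36.7 (KO3) (edgeR adjusted p = 0.0371), a different order.

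The other genes of the pathway were compared between the groups as 7 lists. Of their 83 genes 80 were tested; edgeR called 0, with 8 at an unadjusted p under 0.05 (Bhlhe41, Ccl8, Cidec, Fabp4, Fn1, Ifitm6, Nr4a1 and Selenop), where 2.52% of all genes passed. DESeq2 called 1, Fabp4, where 0.223% of all genes passed. Of all genes tested, 48.3% had positive log2 fold changes. The 8 growth factors and receptors of macrophages (Csf1, Il34, the GM-CSF system, Tgfb1 and Il4ra) all had negative values, with a median of -0.64. The 2 of smallest p were Il4ra, the receptor for interleukin 4 (-0.84 ± 0.41 SE), and Csf2rb, the shared chain of the GM-CSF receptor (-1.34 ± 0.68 SE). Il4ra had 35.6 and 46.8 CPM in the NK mice and 58.1 to 98.8 in the Ctrl mice, without overlap, where 6.86% of all genes were below every Ctrl mouse. Csf2rb had 23.3 CPM in NK1, below the Ctrl range of 52.8 to 202.7, and 68.8 in NK2, inside it, and it differed among the Ctrl mice (edgeR adjusted p = 0.0317).

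Of the further monocyte genes 2 of 11 had positive values, and the median was -1.06. Ifitm6 gave -3.03 ± 1.10 and the matrix gene Fn1 1.03 ± 0.40 (SE, log2), and Fn1 is also a fibroblast gene. The 12 monocyte chemokines and receptors had 6 positive values and a median of 0.01. Among them the chemokine Ccl8 had 15.6 CPM in NK1 and at most 0.585 in the other mice, and all 164 counts of NK1 were in lesion NK1-1.

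The 10 myeloid transcription factors had a median of -0.18, with 4 positive values. Bhlhe41, a factor of alveolar macrophage identity, had 16.3 and 9.06 CPM in the NK mice and 2.65 to 6.96 in the Ctrl mice (1.53 ± 0.62 SE, log2). In NK1, 145 counts (101.5 CPM) came from NK1-3, the shallowest lesion and the highest in lung epithelial genes. The part of epithelial cells in that value was not tested. NK1-1 and NK1-2 had 3.59 and 1.199 CPM, inside and below the range of the Ctrl lesions (1.35 to 12.5). Nr4a1, an early response gene needed by patrolling monocytes, had 6.66 and 9.12 CPM in the NK mice and 8.55 to 50.6 in Ctrl, with overlap (-1.73 ± 0.74 SE). The 16 tested of 18 further tissue macrophage genes had a median of 0.07 (8 positive), and the selenium carrier Selenop had 428 CPM in NK1 and 90.2 to 113 in the others. Its level in NK1 came from lesion NK1-1 (679.5 CPM), since NK1-2 and NK1-3 had 34.4 and 42.01, inside the range of the Ctrl lesions (28.3 to 160). The 12 further lipid-associated genes had 10 positive values and a median of 0.25, led by Lpl (1.25 ± 0.57 SE, log2), a lipase that fat cells also make, which had 529 CPM in NK1-1 and 13.2 and 21.7 in the other lesions of NK1.

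Other immune cells stood beside these genes as follows. NK cell genes summed to 50.2 and 25.6 CPM in the NK mice and to 2.68 to 5.88 in the Ctrl mice, with 10 of 10 tested genes positive. Dendritic cell genes summed to 31.98 and 87.4 CPM in the NK mice and to 38.7 to 60.2 in Ctrl. Endothelial genes summed to 112 CPM in NK1 and to 274 to 475 in the other 4 mice.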

How the data were processed

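RNA of 18 laser-captured lesions (2 ng each) went into a QIAseq FX single cell library kit, per the labels' protocols. The submitters' processing notes name mm10, STAR, bcl2fastq 2.17, DESeq2 and RSEM 1.2.28; whether strand was used is not stated there. The deposited table holds RSEM's expected counts with no scaling by the authors, and these were rounded. A further table deposited by the authors is on a log2 scale, judged from its range, and was normalized by them with an unstated transformation; it served as an alternative only. There were 0 further columns of sample values, and 49326 of 49585 identifiers matched a symbol.

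Counts were summed per mouse and compared by edgeR 4.0.16 with its quasi-likelihood F test (R 4.3.3, robust, TMM, filterByExpr with a minimum count of 10 and a minimum total of 15), with Benjamini-Hochberg adjustment over all genes and a threshold of 0.05. The Ctrl mice were compared over their lesions in the same way. The standard error is the log2 fold change divided by the square root of F. Scripts were tested on simulated data. Nothing in the labels says whether mice shared a litter. Lesions of the same mouse always differed beyond sampling noise (lowest chi-square per degree of freedom 22.0 over 26 pairs). The common coefficient of variation was 64.9%. Alternatives were DESeq2 1.42.0, RLE scaling, other filters, limma 3.58.1 on the lesions, equal weights, the log2 table, a replicate block and leaving out lesions or mice.

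The genes and lists were chosen with earlier results of these data known. Full statistics were given by rule: in each subset the 3 genes of smallest p and the 3 of highest mean CPM, the 3 of smallest p among the Ctrl mice, and 11 markers. Of the genes looked at in the further lists, 2 are not reported here. Coordinates are GRCm38 (mm10), 1-based, from GENCODE M21.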

Additional observations from a re-analysis of the deposited data

Results flagged for a closer look

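Of the 19 named genes, 6 had an NK lesion farther from the other 6 NK lesions than Dixon's critical value at 95% allows (a gap of 0.568 of the range for 7 lesions). Chance flags about 1 in 20 groups of independent, normally distributed values. The test was made on CPM without a log scale, and the lesions of a mouse are not independent, so that rate need not hold here. In lesion NK1-1, Adgre1 had 25.1 CPM (next lesion 6.38), Mrc1 had 144 CPM (next 45.4) and Arg1 had 92.3 CPM (next 24.4). In lesion NK2-4, Marco had 6.79 CPM (next 1.27) and Ear2 had 20.2 CPM (next 7.07). In lesion NK2-2, Apoc2 had 175 CPM (next 57.95).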

How the results depend on the processing

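Over 34 alternatives, 589 of 644 log2 fold changes of the named genes kept their direction and their side of the threshold, and 5 of the 19 named genes (C1qb, Ly6c2, Apoe, Apoc2 and Plet1) never changed direction. The cause of a change was not tested, except where fewer mice or lesions entered.

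The count called in NK against Ctrl was 3 without a filter and 0 in every other setting run. The alveolar median ranged from -1.26 (without NK2) to 0.61 (without KO3) when 1 mouse or lesion was left out, and the other median from -0.17 (without NK2) to 0.33 (without KO3); weighting lesions equally gave -0.13 for the latter. Among the Ctrl mice, DESeq2 called 10 of the genes, where 14.5% of all genes passed. Without mouse KO1 there was 1, where 30 of all 13704 genes tested passed. Leaving out KO1 was a setting chosen after seeing the data, as was merging genes that share reads. Leaving out 1 lesion gave 1 (without KO2-3) to 8 (without KO3-1), and 3 without KO1-3, KO2-1, KO2-2 or KO3-2.

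Without the 6 lesions over 40% mt-Rnr2, the log2 fold change turned to -0.28 for Adgre1, 0.12 for Csf1r, 0.49 for Chil3, 0.87 for Marco, -0.23 for Arg1 and 0.36 for Gpnmb. Every lesion of NK1 is among those left out, so NK2 was the only NK mouse in that fit. Its changes of direction cannot be told apart from leaving out mouse NK1. With lesions weighted equally, the log2 fold change turned to -0.10 for Mrc1, -0.19 for C1qc, -0.24 for Lyz2, -0.17 for Trem2, 0.50 for Gpnmb and -0.22 for Fabp5. In the authors' log2 table, the log2 fold change turned to -0.076 for C1qc, -0.17 for Lyz2, -0.060 for Trem2, 0.43 for Gpnmb and -0.15 for Fabp5. With lesions as units and the mouse as a random block, the log2 fold change turned to 2.02 for Gpnmb and -0.010 for Fabp5.

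When 1 mouse or lesion was left out, the log2 fold changes that changed direction ranged as follows: Adgre1 from -0.26 (without NK1-1) to 1.62 (without KO2), Cd68 from -0.18 (without NK2) to 1.35 (without NK1), Mrc1 from -0.25 (without NK1-1) to 1.60 (without NK2), Chil3 from -3.38 (without NK2) to 0.32 (without NK1), Marco from -4.72 (without NK2) to 0.58 (without KO3), C1qa from -0.20 (without NK2) to 0.87 (without NK1), C1qc from -0.80 (without NK2) to 0.71 (without NK1), Lyz2 from -0.13 (without NK2) to 0.52 (without NK1), Trem2 from -0.64 (without KO3-1) to 0.66 (without KO3-2), Arg1 from -0.24 (without NK1) to 4.54 (without KO2), Gpnmb from -2.88 (without NK2) to 3.10 (without KO3), Fabp5 from -0.16 (without NK2) to 0.28 (without NK1), Ear2 from -1.30 (without NK2) to 1.86 (without NK1).

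The shared numbers of NK1 with KO1 and of NK2 with KO2 do not pair the samples by any label, and their deviations correlated at 0.0957 and 0.289. A fit with the replicate block by mouse number called 0 of the 33 genes and 7 genes in all, and it gave -0.18 for C1qc and 2.23 for Gpnmb. Depth limits Siglecf, Pparg, Cd163, Vsig4 and Folr2, with 9 to 111 counts in a group.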
